A study of Mus musculus with 8 samples.

Results

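A set of 9 genes that mark the resident macrophages of the liver or the monocytes recruited to it was followed through cultures of primary mouse hepatocytes. Resident Kupffer cells were represented by 6 genes (Adgre1, Clec4f, Timd4, Vsig4, Cd5l and Marco) and recruited monocytes by 3 (Ccr2, Cx3cr1 and Ly6c2). Each gene was read by its symbol in the platform's annotation, from the probe set with the highest mean signal among those assigned to that symbol alone. That gave values for 8 of the 9 genes, out of 19937 genes measured. Ly6c2 had no probe set of its own and is described separately.

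The study examined the 2 heme oxygenases, the enzymes that break heme down to biliverdin, carbon monoxide and iron: the inducible HO1 (gene Hmox1) and the constitutive HO2 (gene Hmox2). RNA was hybridised to 8 whole-transcript arrays, 2 for each of 4 groups. The arrays labelled HO1 knockout came from HO1-/- cells with scrambled shRNA, the combined arrays from HO1-/- cells with shRNA against HO2, the HO2 knockdown arrays from HO1+/+ cells with that same shRNA, and the control arrays from HO1+/+ cells with scrambled shRNA. Cells of all 4 groups came from collagenase-perfused livers of male mice on a BALB/c background, enriched on a Percoll gradient. The age of the mice is not given. All were transduced with lentivirus, kept in puromycin from 24 h, and after 3 days given a 30 min pulse of dexamethasone (1 µM), with harvest at 28 h after it, so that the controls also carried a vector, an antibiotic and a glucocorticoid. A single hairpin was used against HO2. The replicates are called biological, but nothing says that they came from separate animals, so p-values measure the spread between these arrays. Genotype and the hepatocyte preparation cannot be told apart, because HO1-/- and HO1+/+ cells came from different livers.

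Values are log2 signals. A dim limit was set on each array at the 95th percentile of 1194 olfactory and vomeronasal receptor genes, which liver cells are not known to use. It lay between 6.83 and 7.15, and a signal below it is called here not above background. Of the hepatocyte genes on a fixed list, 10 to 12 of the 12 measured were above that limit on every array, and albumin (Alb) read between 13.32 and 13.99 on all 8. Hmox2 read 11.59 and 11.60 on the arrays labelled HO1 knockout, against 11.41 and 11.57 in control cells. With the hairpin it read 9.26 and 9.32 in combined cells and 8.32 and 8.38 in HO2 knockdown cells. Its difference with the hairpin was smaller in HO1-/- cells (-2.30 log2) than in HO1+/+ cells (-3.14 log2). Hmox1 read 11.98 and 11.97 on the arrays labelled HO1 knockout and 12.40 and 12.47 on the combined arrays, and 11.54 and 11.57 in HO2 knockdown cells, against 11.46 and 11.40 in control cells. Its signal was therefore higher, not lower, on the arrays labelled HO1-/-. The exons removed in this allele are not given, so a whole-transcript probe set need not report the deletion, and every direction below rests on the genotype label.

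Kupffer cells are the macrophages that live in the liver sinusoids, where they clear particles, complement-coated microbes and worn red cells, and where they recycle heme iron. They are seeded before birth and renew themselves. When they are lost, monocytes that enter from the blood can take their place and acquire the resident genes in steps. In mice, Adgre1 encodes an adhesion receptor whose antigen marks most tissue macrophages, and Clec4f a lectin used to tell Kupffer cells from other macrophages. Timd4 encodes a receptor for phosphatidylserine on dying cells, Vsig4 the complement receptor CRIg, Cd5l a secreted protein (AIM) of macrophages, and Marco a scavenger receptor. Ccr2 and Cx3cr1 encode the receptors for the chemokines CCL2 and CX3CL1, and Ly6c2 contributes the Ly6C antigen of classical monocytes.

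On the arrays labelled HO1 knockout the resident genes did not move together. Adgre1 and Cd5l rose against control and Vsig4 fell, while Clec4f, Timd4 and Marco did not pass the test, nor did the monocyte receptors Ccr2 and Cx3cr1. Between combined and HO2 knockdown cells, Adgre1 and Cd5l were again higher, Clec4f and Cx3cr1 were also higher, and Vsig4 did not pass. In HO1-/- cells the hairpin against HO2 then lowered Adgre1 and Cd5l and raised Vsig4. Of the genes that most macrophages share, 19 of 19 were higher on the arrays labelled HO1 knockout, as were 2 of the 6 resident genes and 5.62% of all genes.

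Adgre1 had the widest range of the 8 genes. Its log2 signal was 11.19 and 11.21 on the arrays labelled HO1 knockout, 9.80 and 10.02 in combined cells, 6.43 and 6.60 in HO2 knockdown cells, and 6.43 and 6.67 in control cells. All 4 arrays from HO1-/- cells were bright, and all 4 from HO1+/+ cells were not above background. Against control, the HO1 knockout difference was 4.65 log2 (SE 0.10, adjusted p = 1.3e-14, limma with Benjamini-Hochberg adjustment over all genes). Because the control signal was dim, this stands as at least 18.1-fold higher, with measured means of 11.20 and 6.55. Adgre1 ranked 3 from the top of all 19937 genes in that comparison. Combined cells were at least 8.34-fold higher than HO2 knockdown cells (3.40 log2, limma adjusted p = 5.68e-13) and at least 7.40-fold higher than control cells (3.36 log2, limma adjusted p = 4.35e-13).

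Within HO1-/- cells the hairpin lowered Adgre1. The combined arrays were 1.29 log2 below the arrays labelled HO1 knockout (SE 0.10, limma adjusted p = 1.18e-07), both groups were above background, and their arrays did not overlap. In HO1+/+ cells the hairpin gave a difference of -0.04 log2 between dim signals (95% interval -0.26 to 0.18, limma adjusted p = 0.795). The interaction, which is the effect of the hairpin in HO1-/- cells minus its effect in HO1+/+ cells, was -1.25 log2 (SE 0.14, limma adjusted p = 5.89e-05). Since Adgre1 was not above background in HO1+/+ cells, a lowering there would have had little signal in which to be seen.

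**Figure D1:**
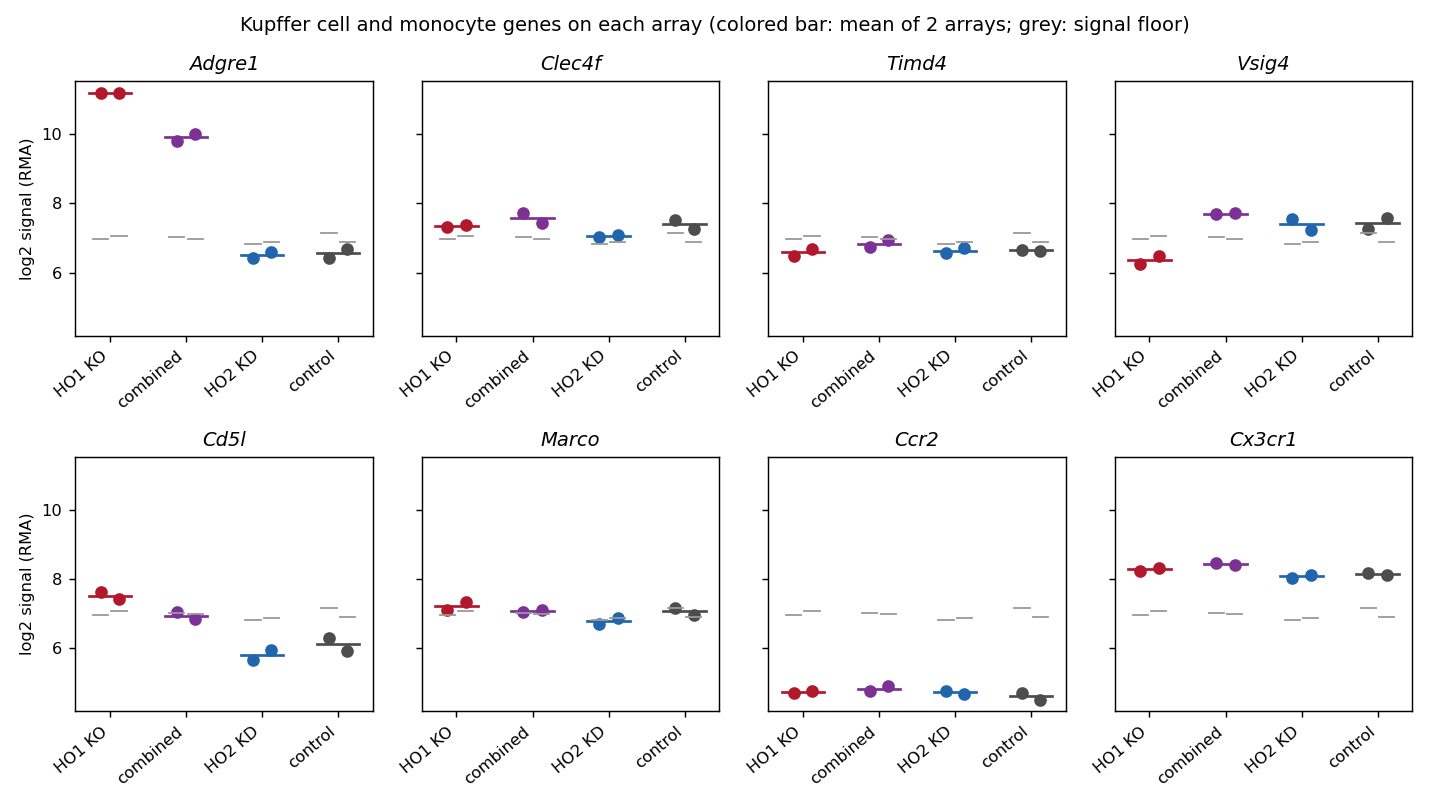
Log2 signal (y axis) of each of the 8 measured genes on every array (points), with the group mean as a coloured bar, the dim limit of each array as a grey dash, and groups from left to right HO1 knockout (KO), combined, HO2 knockdown (KD) and control. Adgre1 sits near 11.20 on the arrays labelled HO1 knockout and 9.91 on the combined arrays, against 6.51 for HO2 knockdown and 6.55 for control, while Timd4 and Ccr2 stay below the limit on all 8 arrays.

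Cd5l (AIM) followed the same order of groups at a far lower signal. It read 7.62 and 7.43 on the arrays labelled HO1 knockout, 7.06 and 6.83 in combined cells, 5.64 and 5.95 in HO2 knockdown cells, and 6.30 and 5.93 in control cells. The HO1 knockout arrays and 1 combined array were above background, and the other 5 were not. The HO1 knockout signal was 1.41 log2 above control (SE 0.14, limma adjusted p = 2.08e-06), which stands as at least 1.41-fold higher. Combined cells were 1.15 log2 above HO2 knockdown cells (limma adjusted p = 1.44e-05) and 0.83 log2 above control cells (limma adjusted p = 0.000201). Against HO2 knockdown this stands as at least 1.07-fold higher. No fold is given against control, because the mean of the combined arrays, 6.95, was below the mean dim limit of the control arrays, 7.02.

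The hairpin lowered Cd5l by 0.58 log2 in HO1-/- cells (limma adjusted p = 0.00577), with no overlap between the arrays. That call was lost without HO1 knockout replicate 1 (-0.48) or combined replicate 2 (-0.46), and held when any other single array was left out. In HO1+/+ cells the difference was -0.32 between dim signals (95% interval -0.61 to -0.02, limma adjusted p = 0.0928), which passed without control replicate 2 (-0.50, limma adjusted p = 0.00931). The interaction was -0.26 (95% interval -0.68 to 0.16, limma adjusted p = 0.410), so the effect of the hairpin on Cd5l was not shown to differ between genotypes.

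Vsig4 (the complement receptor CRIg) went the other way. It read 6.24 and 6.47 on the arrays labelled HO1 knockout, 7.69 and 7.71 in combined cells, 7.56 and 7.24 in HO2 knockdown cells, and 7.27 and 7.58 in control cells. The arrays labelled HO1 knockout were the only ones not above background, and they lay below the other 6 without overlap. Vsig4 was lower there than in control cells by a fitted -1.07 log2 (SE 0.13, limma adjusted p = 2.17e-05), which stands as at least 1.33-fold lower. The fitted value, which takes no account of the dim limit, ranked 22 from the bottom of all genes. Control signals were not far above that limit, 7.27 against 7.15 in replicate 1 and 7.58 against 6.89 in replicate 2. With the hairpin added, combined cells were at least 1.61-fold above the arrays labelled HO1 knockout (1.35 log2, limma adjusted p = 9.85e-07).

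The effect of the hairpin on Vsig4 differed between genotypes, with an interaction of 1.37 log2 (SE 0.18, limma adjusted p = 0.000185). In HO1+/+ cells it was -0.02 (95% interval -0.30 to 0.25, limma adjusted p = 0.899), at signals of 7.24 to 7.58. Combined cells stood 0.30 above HO2 knockdown cells (95% interval 0.02 to 0.58, limma adjusted p = 0.0865) and 0.28 above control cells (95% interval -0.0004 to 0.55, limma adjusted p = 0.135), and neither passed the test with all arrays. Both were near the threshold: the difference from HO2 knockdown passed without control replicate 1 (0.30, limma adjusted p = 0.0350) or control replicate 2 (0.30, limma adjusted p = 0.0353), with array weights (0.0313) and in a fit of those 2 groups alone (0.0275). The difference from control passed without control replicate 2 (0.43, limma adjusted p = 0.0221).

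Clec4f, the lectin most particular to Kupffer cells among the 6, was above background on all 8 arrays but moved little. It read 7.32 and 7.39 on the arrays labelled HO1 knockout, 7.73 and 7.44 in combined cells, 7.02 and 7.09 in HO2 knockdown cells, and 7.52 and 7.27 in control cells. HO2 knockdown cells were lowest, below all 6 other arrays. The HO1 knockout difference from control was -0.04 (95% interval -0.29 to 0.21, limma adjusted p = 0.897). That interval leaves out a difference in signal as large as the fitted ones of Adgre1, Cd5l or Vsig4. Signals were close to the dim limit, 7.32 against 6.96 in HO1 knockout replicate 1 and 7.52 against 7.15 in control replicate 1. A larger change in RNA could therefore have been missed.

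Clec4f passed the test in 3 comparisons, all with small differences. It was lower in HO2 knockdown than in control cells by a fitted -0.34 log2 (limma adjusted p = 0.0331) and higher in combined than in HO2 knockdown cells by 0.53 (limma adjusted p = 0.00258). The interaction was 0.57 (limma adjusted p = 0.0349). The HO2 knockdown call was lost without control replicate 1 (-0.22, limma adjusted p = 0.216), without HO2 knockdown replicate 1 (-0.31, limma adjusted p = 0.173) and without HO2 knockdown replicate 2 (-0.38, limma adjusted p = 0.0901), and also after the arrays were centred on their medians (-0.29, limma adjusted p = 0.0558). Without combined replicate 1, the difference from HO2 knockdown was 0.38 (limma adjusted p = 0.0643). Where Clec4f was lower, in HO2 knockdown against control, hepatocyte genes were 10 higher and 1 lower of 12. There 16.5% of all genes were higher and 16.7% lower. The summed linear signal of the hepatocyte genes was 90360 to 93750 in HO2 knockdown cells, against 44455 to 45155 in control cells. The part of that difference in the Clec4f result was not tested. The interaction missed the threshold in 6 of the 8 fits that left out 1 array, with limma adjusted p between 0.0668 and 0.188 in those 6.

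Timd4 and Marco did not pass in any comparison of all arrays. Timd4 read between 6.49 and 6.93 on the 8 arrays and was not above background on any of them. Its HO1 knockout difference from control was -0.05 (95% interval -0.28 to 0.18, limma adjusted p = 0.867), a comparison between dim signals. Marco read 7.12 and 7.33 on the arrays labelled HO1 knockout, 7.05 and 7.12 in combined cells, 6.69 and 6.88 in HO2 knockdown cells, and 7.18 and 6.97 in control cells. It was above background on 7 of the 8 arrays, on some only just (6.88 against a limit of 6.87 in HO2 knockdown replicate 2). Its HO1 knockout arrays overlapped those of control (0.15, 95% interval -0.09 to 0.39, limma adjusted p = 0.501). Its difference between combined and HO2 knockdown cells, 0.29 (limma adjusted p = 0.0589), passed without control replicate 1 (limma adjusted p = 0.0259) or control replicate 2 (0.0258), with array weights (0.0204) and in a fit of those 2 groups alone (0.0178). Its difference between HO2 knockdown and control cells, -0.29 (limma adjusted p = 0.0654), passed without control replicate 2 (-0.39, limma adjusted p = 0.0179).

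Of the monocyte receptors, Ccr2 (the CCL2 receptor) was not above background on any array. It read 4.71 and 4.77 on the arrays labelled HO1 knockout, 4.75 and 4.92 in combined cells, 4.76 and 4.68 in HO2 knockdown cells, and 4.71 and 4.51 in control cells. Its HO1 knockout difference from control was 0.13 (95% interval -0.06 to 0.32, limma adjusted p = 0.433). Between combined and control cells it was 0.22 (limma adjusted p = 0.0730), and this passed without control replicate 1 (0.32, limma adjusted p = 0.0189) and after renewed quantile normalization (0.25, limma adjusted p = 0.0350). The gene of its ligand, Ccl2, was bright, and its HO1 knockout difference from control was 0.03 (95% interval -0.06 to 0.13, limma adjusted p = 0.773).

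Cx3cr1 (the CX3CL1 receptor) was above background on all 8 arrays with a narrow range. It read 8.23 and 8.33 on the arrays labelled HO1 knockout, 8.48 and 8.41 in combined cells, 8.04 and 8.13 in HO2 knockdown cells, and 8.19 and 8.11 in control cells. The HO1 knockout difference from control was 0.13 (95% interval -0.05 to 0.32, limma adjusted p = 0.408). Combined cells were higher than HO2 knockdown cells by 0.36 (limma adjusted p = 0.00505) and than control cells by 0.30 (limma adjusted p = 0.0154). The call against HO2 knockdown was lost without HO2 knockdown replicate 1 (0.31, limma adjusted p = 0.0664) or combined replicate 1 (0.33, limma adjusted p = 0.0572). The call against control was lost without control replicate 2 (0.26, limma adjusted p = 0.0593), combined replicate 1 (0.27, limma adjusted p = 0.124) or combined replicate 2 (0.33, limma adjusted p = 0.0593).

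Ly6c2 shares both of its probe sets with Ly6c1, a gene of endothelial cells, and the signal cannot be given to one or the other. The brighter probe set read 9.96 and 9.93 on the arrays labelled HO1 knockout, 9.0 and 9.06 in combined cells, 9.47 and 9.45 in HO2 knockdown cells, and 9.14 and 9.35 in control cells. The arrays labelled HO1 knockout were highest and the combined arrays lowest, with no overlap. Its HO1 knockout signal was 0.70 log2 above control (limma adjusted p = 5.57e-06), and combined cells were lower than the arrays labelled HO1 knockout by a fitted -0.92 (limma adjusted p = 1.69e-07). The dimmer probe set also fell with the hairpin in HO1-/- cells (-0.47, limma adjusted p = 0.00365). Its HO1 knockout difference from control was 0.29 (limma adjusted p = 0.10). Under shRNA against HO2 the genotype difference went the other way. Combined cells were below HO2 knockdown cells for the brighter probe set (-0.43, limma adjusted p = 0.000389) and the dimmer (-0.40, limma adjusted p = 0.00926). Against control, combined cells were lower for the brighter (-0.22, limma adjusted p = 0.0401), and the dimmer did not pass (-0.18, limma adjusted p = 0.241). In HO1+/+ cells the hairpin raised the brighter probe set (0.22, limma adjusted p = 0.0354), and the dimmer did not pass (0.22, limma adjusted p = 0.138). The interaction was -1.14 for the brighter and -0.69 for the dimmer (limma adjusted p = 6.39e-06 and 0.00785).

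**Figure D2:**
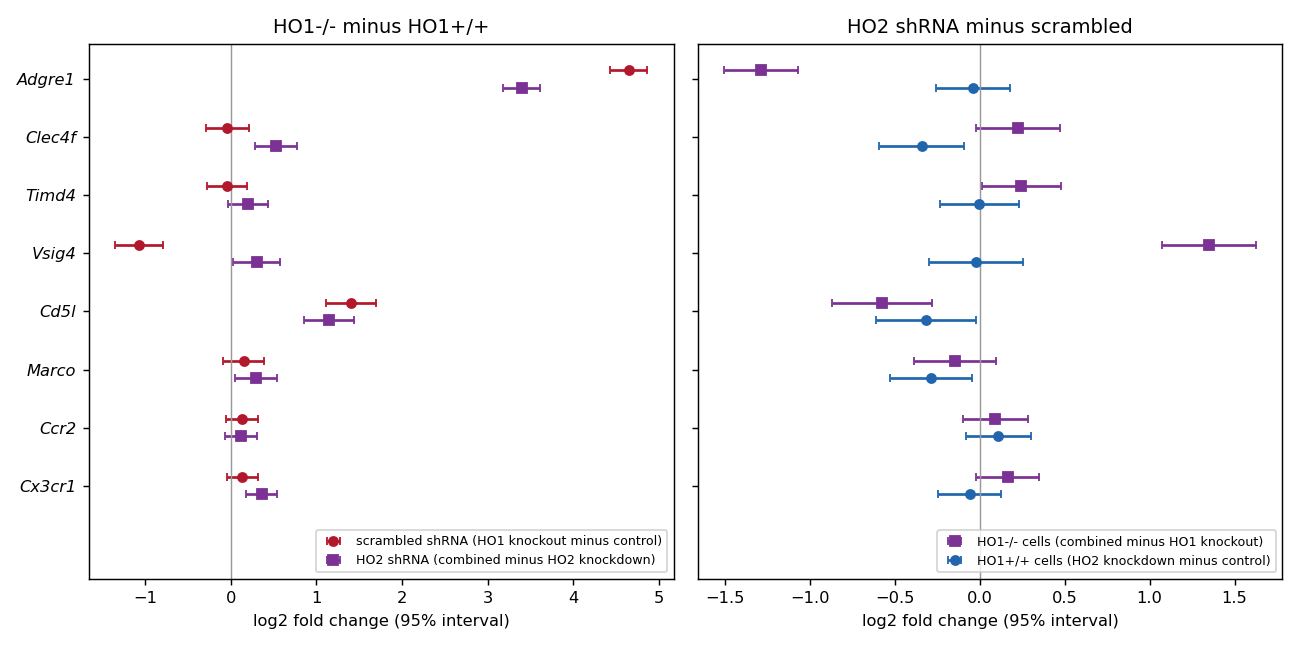
Log2 fold changes (x axis) of the 8 genes with 95% intervals from the limma fit, for HO1-/- minus HO1+/+ cells under each shRNA (left) and for shRNA against HO2 minus scrambled shRNA in each genotype (right). In HO1 knockout minus control Adgre1 is at 4.65, Cd5l at 1.41 and Vsig4 at -1.07, and the other 5 genes have intervals that span 0.

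Counted over the 8 genes, 2 were higher and 1 lower on the arrays labelled HO1 knockout than in control cells. Of all genes, 12.8% passed in that comparison, 5.62% higher and 7.2% lower. The median difference of the 8 was 0.13, and that of all genes -0.04. All 3 calls were at least 2-fold in the fit, as were those of 1.53% of all genes. Against the dim limit Adgre1 stood at 18.1-fold or more, but Cd5l at only 1.41-fold and Vsig4 at 1.33-fold. Combined and HO2 knockdown cells share no array with that comparison, though the fit took the spread from all 8 arrays. Between these 2 groups, 4 of the 8 genes were higher and none was lower, where 34% of all genes passed, 13% higher and 21% lower. With the arrays centred on their medians, 24.1% of the genes that passed there were higher, in place of 38.2%. The median there was 0.33, against 0.02 for all genes. Combined against control cells gave 3 higher and 0 lower of 8, where 29.9% of all genes passed, 11.6% higher and 18.3% lower. At 2-fold or more in the fit, 2 of the 8 were called against HO2 knockdown (1.63% of all genes) and 1 against control (3.02% of all genes). The 2 were Adgre1 and Cd5l, and against the dim limit Cd5l stood at only 1.07-fold or more.

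The hairpin gave 1 higher and 2 lower of the 8 in HO1-/- cells, where 23% of all genes passed, 10.2% higher and 12.8% lower. In HO1+/+ cells it gave 0 higher and 1 lower, where 33.2% of all genes passed, 16.5% higher and 16.7% lower. At 2-fold or more in the fit, 2 of the 8 were called in HO1-/- cells (1.49% of all genes) and 0 in HO1+/+ cells (1.98% of all genes). The 2 were Adgre1 and Vsig4, and against the dim limit Vsig4 stood at only 1.61-fold or more. The single call in HO1+/+ cells, that of Clec4f, ran from 0 to 3 genes when 1 array was left out, with 3 without control replicate 2 and 0 without control replicate 1, HO2 knockdown replicate 1 or HO2 knockdown replicate 2. The 4 higher genes between combined and HO2 knockdown cells became 2 without combined replicate 1. The interaction passed for 3 of the 8, 2 higher and 1 lower, where 12.2% of all genes passed, 4.67% higher and 7.57% lower. At 2-fold or more in the fit it was called for 2 of the 8 and 0.522% of all genes.

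Other genes known from Kupffer cells also included both called and uncalled ones. Of all genes, 5.62% were higher and 7.2% lower in HO1 knockout against control, which the next lists also use. Of 18 further Kupffer cell genes, 8 were higher and 1 lower on the arrays labelled HO1 knockout than in control cells, with a median of 0.20. Mrc1, the mannose receptor, rose at least 10.9-fold (3.88 log2, limma adjusted p = 1.23e-14). Spic, a transcription factor that heme induces in mouse macrophages, rose at least 3.10-fold (2.95 log2, limma adjusted p = 4.71e-12), and Fabp7, a fatty acid binding protein of Kupffer cells, by 1.90 log2 (limma adjusted p = 1.01e-10). Cd163, the scavenger receptor for haptoglobin and hemoglobin, differed by 0.05 between dim signals (95% interval -0.20 to 0.29, limma adjusted p = 0.882).

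Folr2 and Siglec1, surface proteins of many resident macrophages, lay between. Folr2 read 7.74 and 7.79 on the arrays labelled HO1 knockout, against 7.08 and 7.08 in control cells. Siglec1 read 8.81 and 8.69 on the arrays labelled HO1 knockout, against 7.62 and 7.46 in control cells. Both rose, by 0.68 and 1.21 log2 (limma adjusted p = 0.000100 and 1.27e-07).

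Of 17 further monocyte genes, 9 were higher and 1 lower on the arrays labelled HO1 knockout, with a median of 0.60. Itgam, the integrin chain CD11b, read 11.21 and 11.05 on the arrays labelled HO1 knockout, against 7.33 and 7.23 in control cells (3.85 log2, limma adjusted p = 9.32e-15). Fcgr4, an activating IgG receptor, rose at least 8.01-fold (3.86 log2, limma adjusted p = 4.71e-14), and F13a1, a coagulation factor subunit made by macrophages, by 3.59 log2 (limma adjusted p = 3.40e-13). Chil3, a secreted lectin of monocytes and alternatively activated macrophages, differed by 0.14 between dim signals (95% interval -0.06 to 0.34, limma adjusted p = 0.427).

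Genes shared by most macrophages were all higher, 19 of 19, with a median of 2.66. Lyz2, the lysozyme of myeloid cells, read 13.26 and 13.25 on the arrays labelled HO1 knockout, against 8.62 and 8.81 in control cells. Cd53, a tetraspanin of leukocytes, read 12.14 and 12.20 on the arrays labelled HO1 knockout, against 7.75 and 8.01 in control cells. On a linear scale the summed signal of the 19 genes was 57218 to 57953 on the arrays labelled HO1 knockout, 57501 to 60469 in combined cells, 10351 to 10692 in HO2 knockdown cells, and 10866 to 11347 in control cells. In RNA from whole cultures, fewer cells of a type and less RNA per cell cannot be told apart. The part of a difference in macrophage number in the results for the 8 genes was not tested.

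Macrophage transcription factors split as well, with 7 higher and 1 lower of 12 and a median of 0.35. Spi1, which encodes the myeloid master factor PU.1, read 10.69 and 10.74 on the arrays labelled HO1 knockout, against 7.04 and 7.26 in control cells (3.56 log2, limma adjusted p = 6.79e-14). Tfec, a macrophage member of the MITF family, rose by 3.10 log2 (limma adjusted p = 5.36e-13), and Maf, which encodes c-MAF, by 1.48 (limma adjusted p = 6.18e-11).

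Markers of other cells were counted beside these, where 5.62% of all genes were higher and 7.2% lower. Genes of T and NK cells gave 0 higher and 0 lower of 10, cholangiocyte genes 0 and 0 of 6, B cell genes 1 and 0 of 7, dendritic cell genes 1 and 0 of 9, and neutrophil genes 2 and 0 of 10. Sinusoidal endothelial genes gave 4 higher and 1 lower of 12. The higher ones were Fcgr2b, Stab1 and Lyve1, which macrophages can also make, and Cdh5 (VE-cadherin), an endothelial junction gene (0.64 log2, limma adjusted p = 0.000328). In HO2 knockdown against control, Lyve1 (0.77), Fcgr2b (0.63) and Cdh5 (1.17) were also higher, and Stab1 was lower (-0.24). Shared macrophage genes there were 2 higher and 5 lower of 19, where 16.5% of all genes were higher and 16.7% lower. Which cells gave these signals was not tested. The summed linear signal of the sinusoidal endothelial list was 5341 to 5413 on the arrays labelled HO1 knockout, against 3024 to 3082 in control cells. Stellate cell and fibroblast genes gave 0 higher and 8 lower of 12, with a median of -0.34. Hepatocyte genes gave 7 higher and 1 lower of 12, and their summed linear signal was 55160 to 55601 on the arrays labelled HO1 knockout, against 44455 to 45155 in control cells. The part of these differences in the results for the 8 genes was not tested.

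**Figure D3:**
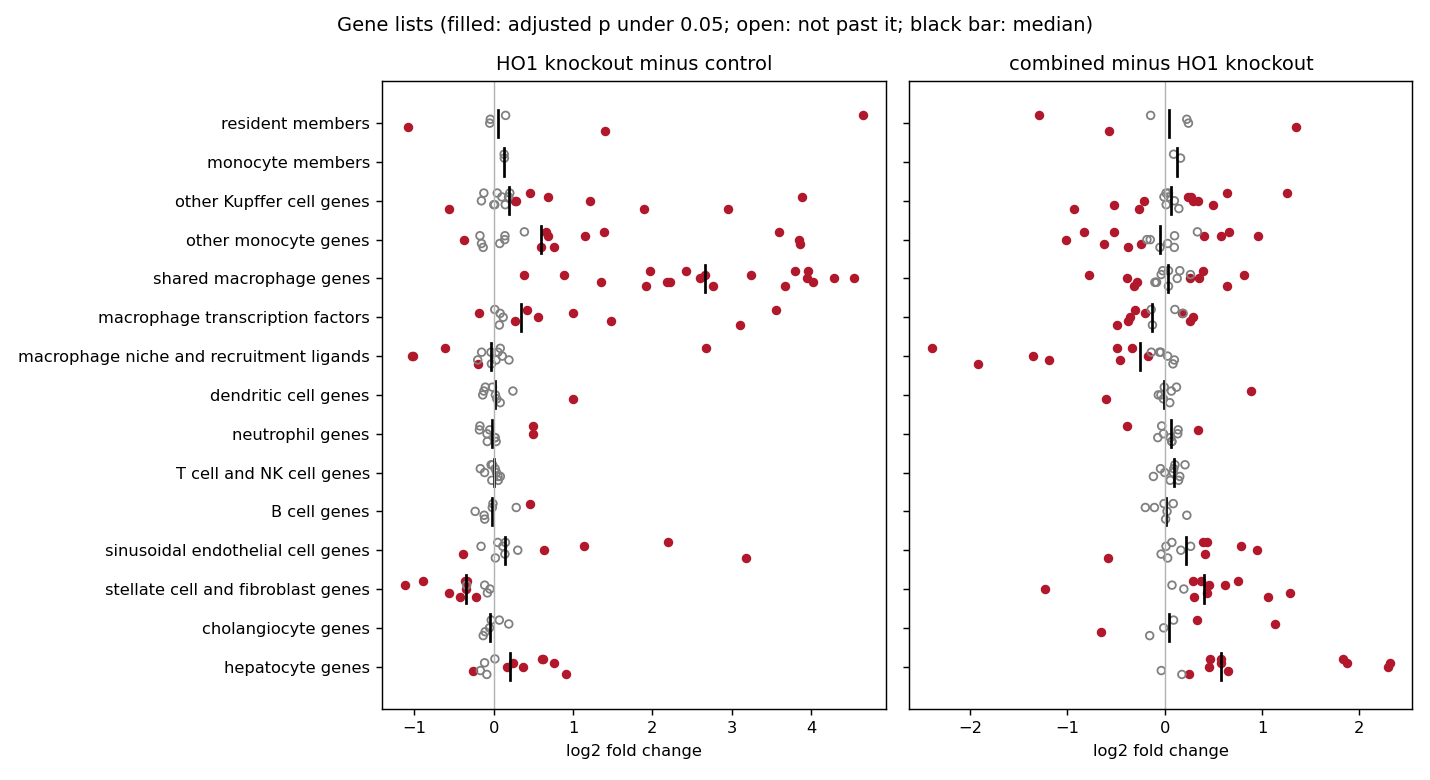
Log2 fold changes (x axis) of every gene measured on each list (points, filled where the adjusted p passed) with the list's median (black bar), for HO1 knockout minus control (left) and combined minus HO1 knockout (right). Shared macrophage genes have a median of 2.66 on the left and 0.04 on the right, and the 18 other Kupffer cell genes 0.20 and 0.07; the horizontal scales differ.

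Combined cells set against HO2 knockdown cells used the other 4 arrays. There 13% of all genes were higher and 21% lower, and the lists gave the following counts. Shared macrophage genes were 18 higher and 0 lower of 19 (median 2.73), other Kupffer cell genes 11 and 3 of 18 (median 0.47), other monocyte genes 10 and 0 of 17 (median 0.62), and macrophage transcription factors 7 and 0 of 12 (median 0.48). Mrc1 was at least 12.2-fold higher, Fcgr4 at least 9.23-fold and Spic at least 1.83-fold (limma adjusted p between 1.21e-14 and 9.57e-11). Itgam was 3.00 log2 higher, F13a1 2.84, Spi1 3.51 and Tfec 2.94.

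In HO1-/- cells the hairpin left the shared macrophage genes with a median of 0.04, 5 of 19 being higher and 4 lower. The shares of all genes were 10.2% higher and 12.8% lower. Some genes fell as Adgre1 did. Itgam read 10.17 and 10.07 in combined cells, against 11.21 and 11.05 on the arrays labelled HO1 knockout (-1.01, limma adjusted p = 1.41e-07). Spic read 7.74 and 7.71 in combined cells, against 8.75 and 8.56 on the arrays labelled HO1 knockout (-0.94, limma adjusted p = 5.56e-06). F13a1 also fell (-0.83, limma adjusted p = 1.64e-05), and the interaction passed for all 3, at -0.85 for Itgam, -0.59 for Spic and -0.75 for F13a1 (limma adjusted p = 0.000204, 0.0174 and 0.00352).

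Other genes that had risen with genotype did not pass with the hairpin. Mrc1 read 10.50 and 10.42 in combined cells, against 10.49 and 10.44 on the arrays labelled HO1 knockout (-0.01, 95% interval -0.19 to 0.17). Fcgr4 differed by 0.03 (95% interval -0.17 to 0.23) and Cd68, a lysosomal protein of macrophages, by 0.04 (95% interval -0.11 to 0.18). Each of these intervals leaves out a fall as large as that of Adgre1. With the hairpin in HO1-/- cells, 10.2% of all genes were higher and 12.8% lower. Hepatocyte genes were 10 higher and 0 lower of 12 in combined cells, with a summed linear signal of 95377 to 98004, against 55160 to 55601 on the arrays labelled HO1 knockout. Stellate cell and fibroblast genes were 9 higher and 1 lower of 12 (median 0.41), and sinusoidal endothelial genes 5 higher and 1 lower of 12 (median 0.22). The part of these differences in the changes of Adgre1, Cd5l and Vsig4 was not tested.

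Ligands that feed or recruit macrophages were mostly lower with the hairpin in HO1-/- cells, 8 of 14, with none higher and a median of -0.26. In that comparison 12.8% of all genes were lower and 10.2% higher. Ccl12, which encodes a chemokine acting on CCR2, read 6.54 and 6.38 in combined cells, against 8.83 and 8.86 on the arrays labelled HO1 knockout. It was not above background in combined cells and stood at least 3.60-fold lower there (-2.39, limma adjusted p = 7.06e-11), and its interaction was -2.27 (limma adjusted p = 1.05e-07). Ccl2 was lower by a fitted -1.19 (limma adjusted p = 1.75e-11) and Ccl7, another ligand of CCR2, by -1.92 (limma adjusted p = 4.46e-13).

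With genotype alone, 1 of the 14 ligands was higher and 4 were lower, with a median of -0.03. The shares of all genes were 5.62% higher and 7.2% lower. Ccl12 was the higher one, at least 3.54-fold (2.67 log2, limma adjusted p = 9.26e-12). Csf1, the growth factor on which macrophages depend, read 11.32 and 11.30 on the arrays labelled HO1 knockout, against 11.82 and 12.04 in control cells (-0.62, limma adjusted p = 3.38e-06). Bmp10, a ligand that maintains Kupffer cell identity in mice, read 7.05 and 6.99 on the arrays labelled HO1 knockout, against 7.89 and 8.21 in control cells (-1.03, limma adjusted p = 8.20e-06).

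For the 3 genes whose signal ranged over more than 1 log2 unit, the genes closest in pattern were found by the root mean square difference of log2 signal over the 8 arrays, each gene taken about its own mean. Closest to Adgre1 were Mmp8 (0.244), Clec4a1 (0.316) and Msr1 (0.321). Mmp8 encodes a collagenase of neutrophils, Clec4a1 a lectin receptor of myeloid cells and Msr1 the macrophage scavenger receptor A. Closest to Cd5l were Lfng (0.153), Fgl2 (0.161) and Ebi3 (0.164), which encode a glycosyltransferase acting on Notch, a fibrinogen-like protein and a cytokine subunit. Closest to Vsig4 were Prex2 (0.155), Krt20 (0.191) and Malrd1 (0.193), none of them a macrophage marker. These likenesses describe the 8 arrays, which share 4 group means.

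**Figure D4:**
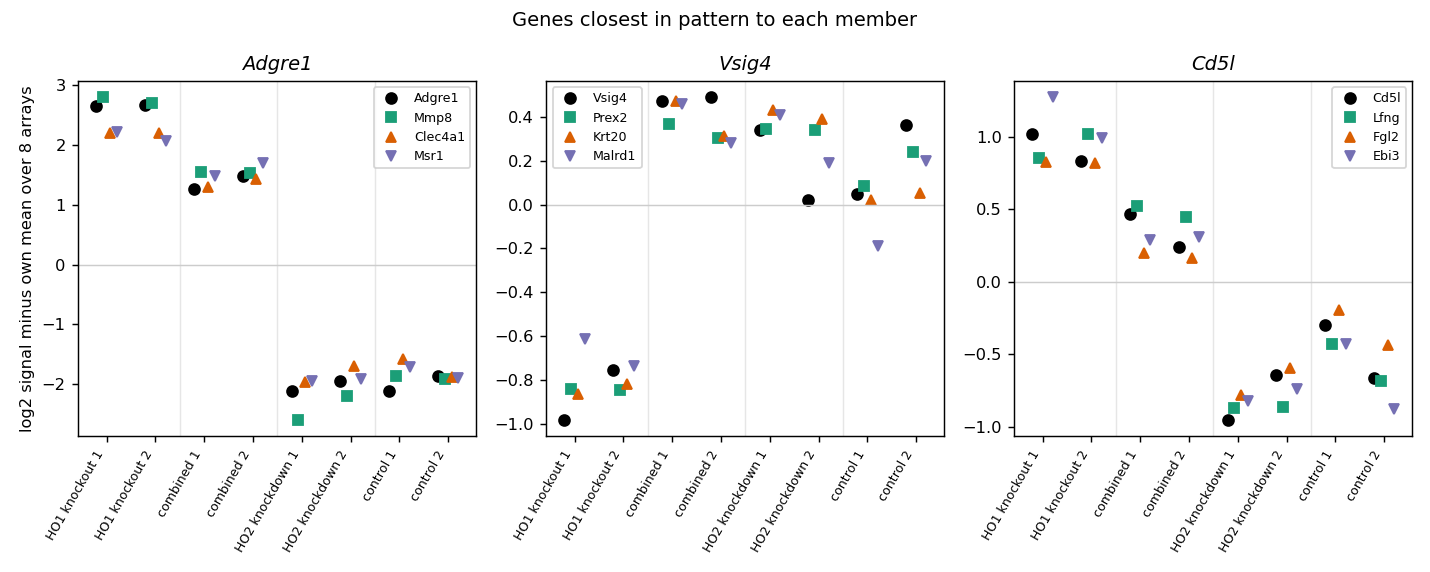
Log2 signal minus the gene's own mean (y axis, scaled separately in each panel) on the 8 arrays (x axis) for Adgre1, Vsig4 and Cd5l (circles) and for the 3 genes closest to each. In the Adgre1 and Cd5l panels the arrays labelled HO1 knockout are highest and the combined arrays next, and in the Vsig4 panel the arrays labelled HO1 knockout lie below the other 6.

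Promoters of Cd5l and Vsig4, which moved in opposite directions, were set side by side with that of Timd4. This was done because Spi1, Maf and Tfec themselves rose on the arrays labelled HO1 knockout. RefSeq (GRCm38.p6) gave 250 bases upstream of the start for 8 of the 9 genes. Each was searched on both strands for GAGGAA, letters at the core of PU.1 sites, for TGCTGAC, letters in sites of MAF proteins, and for CACGTG, the E-box read by the MITF family. Cd5l rose and Vsig4 fell on the arrays labelled HO1 knockout, while Timd4 was not above background and passed in no comparison. Timd4 was the only gene with a match to TGCTGAC. Marco and Ly6c2, which also held GAGGAA, are not shown. The strand given is that of the gene, each sequence runs 5′ to 3′ along it, and capitals mark the match.
Cd5l promoter, chr3:87357631-87357880, plus strand: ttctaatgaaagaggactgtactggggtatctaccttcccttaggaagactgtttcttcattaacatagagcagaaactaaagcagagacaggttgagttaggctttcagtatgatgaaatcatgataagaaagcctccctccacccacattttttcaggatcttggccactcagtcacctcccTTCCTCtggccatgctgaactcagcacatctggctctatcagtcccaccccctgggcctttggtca
Vsig4 promoter, chrX:96293439-96293688, minus strand: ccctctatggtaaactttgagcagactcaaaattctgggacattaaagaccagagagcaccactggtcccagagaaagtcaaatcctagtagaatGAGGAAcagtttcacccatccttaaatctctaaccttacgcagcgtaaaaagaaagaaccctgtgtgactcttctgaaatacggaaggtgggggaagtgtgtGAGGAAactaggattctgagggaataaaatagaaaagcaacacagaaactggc
Timd4 promoter, chr11:46810549-46810798, plus strand: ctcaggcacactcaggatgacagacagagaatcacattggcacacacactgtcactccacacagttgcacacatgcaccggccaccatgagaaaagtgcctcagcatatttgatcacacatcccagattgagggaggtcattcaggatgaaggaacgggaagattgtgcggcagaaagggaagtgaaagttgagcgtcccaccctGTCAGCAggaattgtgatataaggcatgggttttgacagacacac

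GAGGAA was found in 4 of the 8 genes with an entry, namely Vsig4, Cd5l, Marco and Ly6c2, and in 23.3% of all 32851 promoters. Vsig4 held it at 2 places on the gene's strand and Cd5l at 1 place on the other strand, so that it stood both in a gene that rose and in one that fell. TGCTGAC was found in Timd4 alone, on the other strand, and in 3.81% of all promoters. CACGTG was found in 0 of the 8 and in 6.02% of all promoters. A match describes letters in this window and not a bound site.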

How the data were processed

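Per the submitters' processing notes, the authors made the deposited log2 signals with RMA in the package affy under R 2.15.0 (chip definition file and genome build: not given in the sources used here). Per the labels' protocols, 300 ng of RNA was used an array. The table holds 34760 probe sets, of which 21640 carry 1 gene symbol, 1321 several and 11799 none. Where a gene had several (954 genes), the one with the highest mean signal stood for it, giving 19937 genes (19855 matched to RefSeq by gene ID). Array medians were 7.61 to 7.70; the number of arrays limits the precision.

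Group means over all 8 arrays were fitted with limma 3.58.1 in R 4.3.3 (trended empirical Bayes, 4 residual and 11.2 prior degrees of freedom), without a replicate block. P-values are two-sided with Benjamini-Hochberg adjustment across the genes tested, and the threshold was 0.05. A fold against a group not above background was taken against the dim limit. Named genes are the 9, the 3 of each list with the smallest p in HO1 knockout against control, and the 3 closest in pattern; Ccl2, Ccl7, Cd68, Cd163, Cdh5, Chil3, Folr2 and Siglec1 were singled out as background or after their values were seen. Members and lists were chosen with earlier results of these data known. The fit was tested on simulated data. Alternatives changed the trend, array weights, scaling, probe choice, signal filter, thresholds, block and arrays used. Python 3.11.15 with pandas 2.3.3 and matplotlib 3.10.9 prepared tables and figures.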

Additional observations from a re-analysis of the deposited data

Results flagged for a closer look

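For 3 of the 8 genes the effect of the hairpin against HO2 differed between the genotypes by the interaction term of the limma fit, which passed for 12.2% of all genes. For Adgre1 the interaction was -1.25 log2 (limma adjusted p = 5.89e-05), from -1.29 in HO1-/- cells and -0.04 in HO1+/+ cells, where its signal was not above background. For Vsig4 it was 1.37 (limma adjusted p = 0.000185), from 1.35 in HO1-/- cells and -0.02 in HO1+/+ cells. For Clec4f it was 0.57 (limma adjusted p = 0.0349), from 0.23 in HO1-/- cells and -0.34 in HO1+/+ cells, and it is the least secure of the 3, as given above. For Hmox2 itself the interaction was 0.84 (limma adjusted p = 3.86e-05), from -2.30 in HO1-/- cells and -3.14 in HO1+/+ cells. The part of this unequal knockdown in the 3 interactions was not tested. Groups of 2 arrays were not examined for an outlying array.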

How the results depend on the processing

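Of 916 values of single genes under the alternatives, 847 kept direction and side of the threshold, 33 lost a call, 13 gained one and 23 changed sign, none of these 23 with a call. The rises of Adgre1 and Cd5l and the fall of Vsig4 on the arrays labelled HO1 knockout against control passed without each array in turn. The replicate numbers did not pair the arrays (correlations of deviations -0.26 to 0.12), and a replicate block left 3 of the 8 genes called in HO1 knockout against control, with 2501 genes in all.

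Genes called at an adjusted p under 0.01 were 1575 in HO1 knockout against control (2557 at 0.05), 4283 in combined against HO2 knockdown (6775) and 1065 in the interaction (2442). Asking for a 2-fold change as well left 306 in HO1 knockout, 394 in HO2 knockdown and 602 in combined against control, 325 in combined against HO2 knockdown, 298 in combined against HO1 knockout and 104 in the interaction. Without a trend the interaction gave 1359. Leaving out 1 array gave 1704 to 2937 genes in HO1 knockout against control (lowest without HO1 knockout replicate 1), 3827 to 8253 in combined against HO2 knockdown (4072 without combined replicate 2, 4485 without combined replicate 1, 3827 without HO2 knockdown replicate 1) and 1301 to 4744 in the interaction (4744 without control replicate 2, 1526 without HO1 knockout replicate 1, 1301 without HO2 knockdown replicate 1, 1365 and 1349 without combined replicate 1 and 2). The cause was not tested.

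Of the 8 genes, only Adgre1 and Cx3cr1 passed a filter for signal above the median, so the others could not be called there. That test called 1 in HO1 knockout against control, 0 in HO2 knockdown against control and 2 in combined against HO2 knockdown. It called 1 in combined against HO1 knockout and 1 in the interaction. The single HO2 knockdown call went to 0 with array weights, centred arrays, renewed quantile normalization, 0.01, 2-fold or a fit of those 2 groups alone, and ranged from 0 to 3 without 1 array. Asking for 2-fold left 1 in combined against control and 2 in combined against HO2 knockdown, which ranged from 2 to 6 without 1 array.

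With arrays centred on their medians, HO2 knockdown against control had 62.9% of called genes higher (49.7% as deposited) and the interaction 27.1% (38.2%). Centring and renewed quantile normalization turned these uncalled differences: in HO2 knockdown against control Adgre1 to 0.014 and 0.071, Timd4 to 0.050 and 0.11 and Vsig4 to 0.029 and 0.091, and in combined against control Marco to -0.0048 and -0.042. Quantile normalization turned the interaction of Marco to -0.020. Without 1 array, uncalled differences spanned 0 for Clec4f (-0.17 to 0.085) and Timd4 (-0.15 to 0.054) in HO1 knockout against control, Adgre1 (-0.16 to 0.081), Timd4 (-0.066 to 0.059) and Vsig4 (-0.18 to 0.13) in HO2 knockdown against control, Marco (-0.094 to 0.11) in combined against control and Ccr2 (-0.12 to 0.082) in the interaction. Dim signals limit Timd4 and Ccr2 throughout.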
